A study of Canis lupus familiaris with 15 samples.

Results

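Canine osteosarcomas were compared here by how strongly they expressed genes of DNA replication and division. Each of 15 primary tumors received a score, the mean log2 signal of TOP2A (the topoisomerase that untangles replicated chromosomes), MCM2 (a subunit of the replicative helicase) and CCNA2 (cyclin A2, which acts in S and G2 phase). The 5 tumors with the highest scores were called fast-cycling and the 5 with the lowest slow-cycling, and the other 5 lay between. The names stand for the ranking by these 3 messages, since no rate of division was measured. The tumors were chosen by the 3 scoring genes, whose values are therefore given as a description only, and all probesets of those genes were left out of the comparisons.

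A dividing cell first licenses its replication origins by loading the MCM helicase, then copies its DNA during S phase and parts the copies in mitosis, with cyclin-dependent kinases driving each step. The E2F, MYB and FOXM1 transcription factors switch on the genes for these steps in sequence, so that a tissue with more cells in division holds more of all these messages. Osteosarcoma is a tumor of bone-forming cells that also holds vessels, fibrous stroma, macrophages and bone-resorbing osteoclasts.

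Every tumor came from a different dog and was frozen at amputation of the limb, before chemotherapy. The study compared dogs whose disease free interval (DFI) after surgery was under 100 days (DFI < 100, 8 dogs) with dogs in which it was over 300 days (DFI > 300, 7 dogs). Total RNA of whole tumor tissue was hybridized to Affymetrix Canine 2.0 arrays, 1 array per dog, so that RNA of all cell types in a tumor was measured together and the replicates are dogs. The fast-cycling tumors came from 5 dogs aged 4.4 to 10.8 years, a Golden Ret., a Labrador Ret., 2 Greyhounds and 1 labeled Mix. The tumors between came from dogs aged 5.0 to 12.4 years, 2 Rottweilers, a Doberman, a Greyhound and a Mix. The slow-cycling tumors came from 5 dogs aged 8.0 to 13.4 years, a Golden Ret., a Greyhound and 3 labeled Mix.

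The arrays were alike in general signal. Over 105 pairs of arrays the correlation of log2 values across probesets ran from 0.816 to 0.899. The median log2 signal was 5.69 ± 0.04 in fast-cycling and 5.66 ± 0.08 in slow-cycling tumors (SD, n = 5 each), and 14415 to 15142 probesets in fast-cycling and 14073 to 15161 in slow-cycling tumors lay above a log2 signal of 6.79, the level of control probesets that match no dog gene (the reporter level below). The log2 ratio of 3 prime to 5 prime signal, averaged over 5 pairs of control probesets, grows as RNA is degraded. It was 2.87 ± 0.23 in fast-cycling and 3.54 ± 0.92 in slow-cycling tumors (2-sided exact permutation test, p = 0.159). Bone markers were present in both groups. COL1A1, the main collagen of bone, had a mean log2 signal of 12.94 in fast-cycling and 13.14 in slow-cycling tumors, and RUNX2, the osteoblast transcription factor, 8.76 in fast-cycling and 7.80 in slow-cycling tumors. BGLAP (osteocalcin) lay below the reporter level on average, with 5.02 in fast-cycling and 6.54 in slow-cycling tumors.

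The scores of the fast-cycling tumors were 10.05 (dog 212759), 9.67 (dog 208513), 9.53 (dog 153599), 9.32 (dog 208756) and 9.27 (dog 184844). Those of the slow-cycling tumors were 8.51 (dog 168327), 8.36 (dog 180119), 8.30 (dog 204714), 8.18 (dog 180223) and 7.45 (dog 190030). No wide gap set the fast-cycling tumors off, since the highest score between the groups was 9.17, against 9.27 just inside. The lowest score between the groups was 8.83, against 8.51 for the first slow-cycling tumor. TOP2A ran from 10.84 to 12.13 in fast-cycling and from 8.92 to 11.03 in slow-cycling tumors, so this gene alone did not part the groups. MCM2 ran from 7.78 to 8.48 in fast-cycling and from 5.88 to 7.43 in slow-cycling tumors. CCNA2 ran from 8.70 to 9.73 in fast-cycling and from 7.47 to 8.18 in slow-cycling tumors. The same 5 and 5 tumors were chosen when all probesets of the 3 genes were averaged and when each gene was scaled to unit spread.

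**Figure D1:**
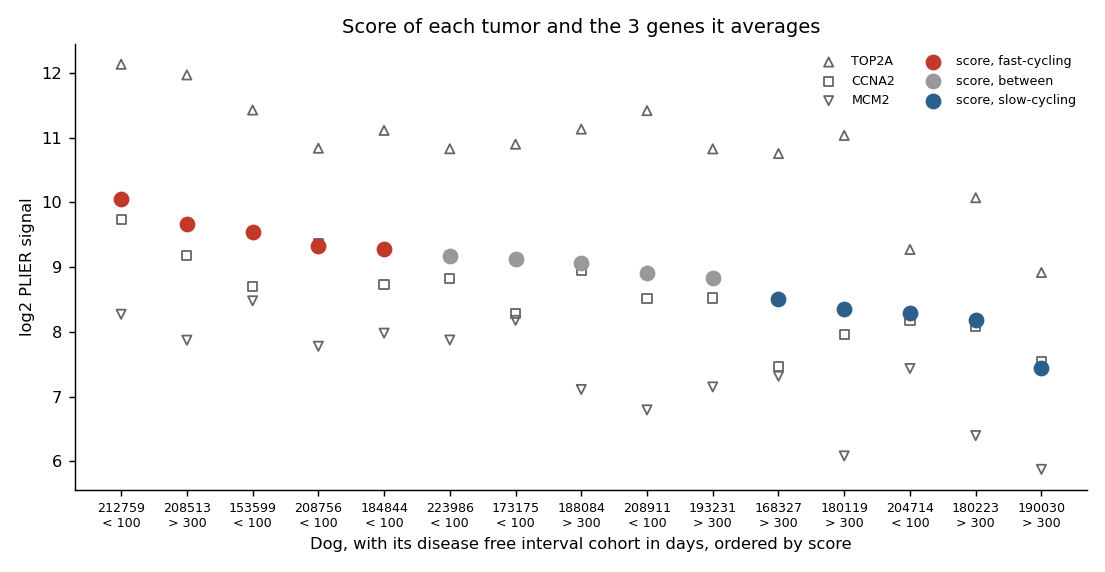
Score of each of the 15 tumors (filled circles) and the 3 genes it averages (open symbols), as log2 PLIER signal, in order of score with the dog's number and DFI cohort in days below. Scores fall gradually, with 9.27 and 9.17 on either side of the fast-cycling border and 8.83 and 8.51 on either side of the slow-cycling one.

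The groups were unevenly spread over the cohorts. Tumors of DFI < 100 dogs were 4 of 5 fast-cycling, 3 of 5 between and 1 of 5 slow-cycling (fast-cycling against slow-cycling, 2-sided Fisher's exact test, p = 0.206). Over all 15 tumors the score averaged 9.21 ± 0.50 in DFI < 100 (SD, n = 8) and 8.58 ± 0.71 in DFI > 300 (SD, n = 7), a difference of 0.63 that is given without a test since the score chose the tumors. Age averaged 8.30 ± 2.60 years in fast-cycling and 10.3 ± 2.33 years in slow-cycling dogs (SD, n = 5 each, 2-sided exact permutation p = 0.254). Osteoblastic tumors were 4 of 5 in each group and giant cell tumors 1 of 5 in each. Humeral tumors were 4 of 5 fast-cycling and 1 of 5 slow-cycling (Fisher's exact p = 0.206). Since only 1 fast-cycling tumor was from DFI > 300 and only 1 slow-cycling tumor from DFI < 100, differences within a cohort rest on a single tumor on one side, and an interaction with cohort was not tested.

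Few single probesets passed a test across the whole array. Of 42856 probesets, 2 rose in fast-cycling tumors and 2 fell at a limma adjusted p under 0.05, or 0.00467% in either direction. They were 1 probeset of PIPOX (adjusted p = 0.0460) and 1 with no gene name (adjusted p = 0.0491) among the higher, and 1 each of MYH3 (adjusted p = 0.0161) and MAT1A (adjusted p = 0.0491) among the lower. All 4 had mean signals below the reporter level, where log2 values of faint signal swing widely. Each of 15112 genes was then represented by its brightest probeset, and 6427 of them lay above the reporter level. Among these the smallest adjusted p was 0.187, so no gene described below passed the adjusted test, and the words higher and lower give measured differences.

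Without adjustment, 874 genes (5.78%) were higher and 675 (4.47%) lower in fast-cycling tumors at p under 0.05. Over all probesets 4191 passed this threshold in either direction, and the threshold itself lets through 2143. The surplus of higher over lower probesets (2334 against 1857) was not kept under quantile normalization, with 2081 higher and 2111 lower, nor without dog 153599, with 2350 and 2355. The signal of every fast-cycling tumor exceeded that of every slow-cycling tumor for 213 genes (1.41%), and lay below it for 126 genes (0.834%). The groups are said not to overlap in these cases. The median log2 difference over all genes was 0.05, and 55.2% of genes were higher. Among the 6427 genes above the reporter level, 549 were higher and 381 lower at the unadjusted threshold. Of these 6427, 153 were higher and 70 lower with no overlap, and their median was 0.07. Lists that lie mostly above that level, such as splicing, the proteasome and oxidative phosphorylation, are best set against the latter counts. Gene lists are described against these values, by counts at the unadjusted threshold, by counts of genes with no overlap and by their median difference.

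The division program as a whole stood higher in fast-cycling tumors. In 10 lists that cover replication, cyclins of S, G2 and M phase, mitosis, chromosome structure and recombination, 251 of 264 genes were higher in fast-cycling tumors, 132 of them (50%) at the unadjusted threshold and 41 (15.5%) with no overlap, while 0 were lower at that threshold. The median log2 difference was 0.72. The mean over the 264 genes was 8.01, 8.37, 7.96, 7.83 and 8.20 in the fast-cycling tumors, listed in order of score here and below. The corresponding slow-cycling means were 7.44, 7.41, 7.31, 7.63 and 6.98, also in order of score. All fast-cycling means thus lay above all slow-cycling ones, with dog 208513 highest and dog 190030 lowest, and the tumors between ran from 7.52 to 8.00. Since these genes are switched on together with the 3 that ranked the tumors, their difference follows in part from the choice and is no independent evidence. In whole tissue, fewer dividing cells and less RNA per cell cannot be told apart.

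**Figure D2:**
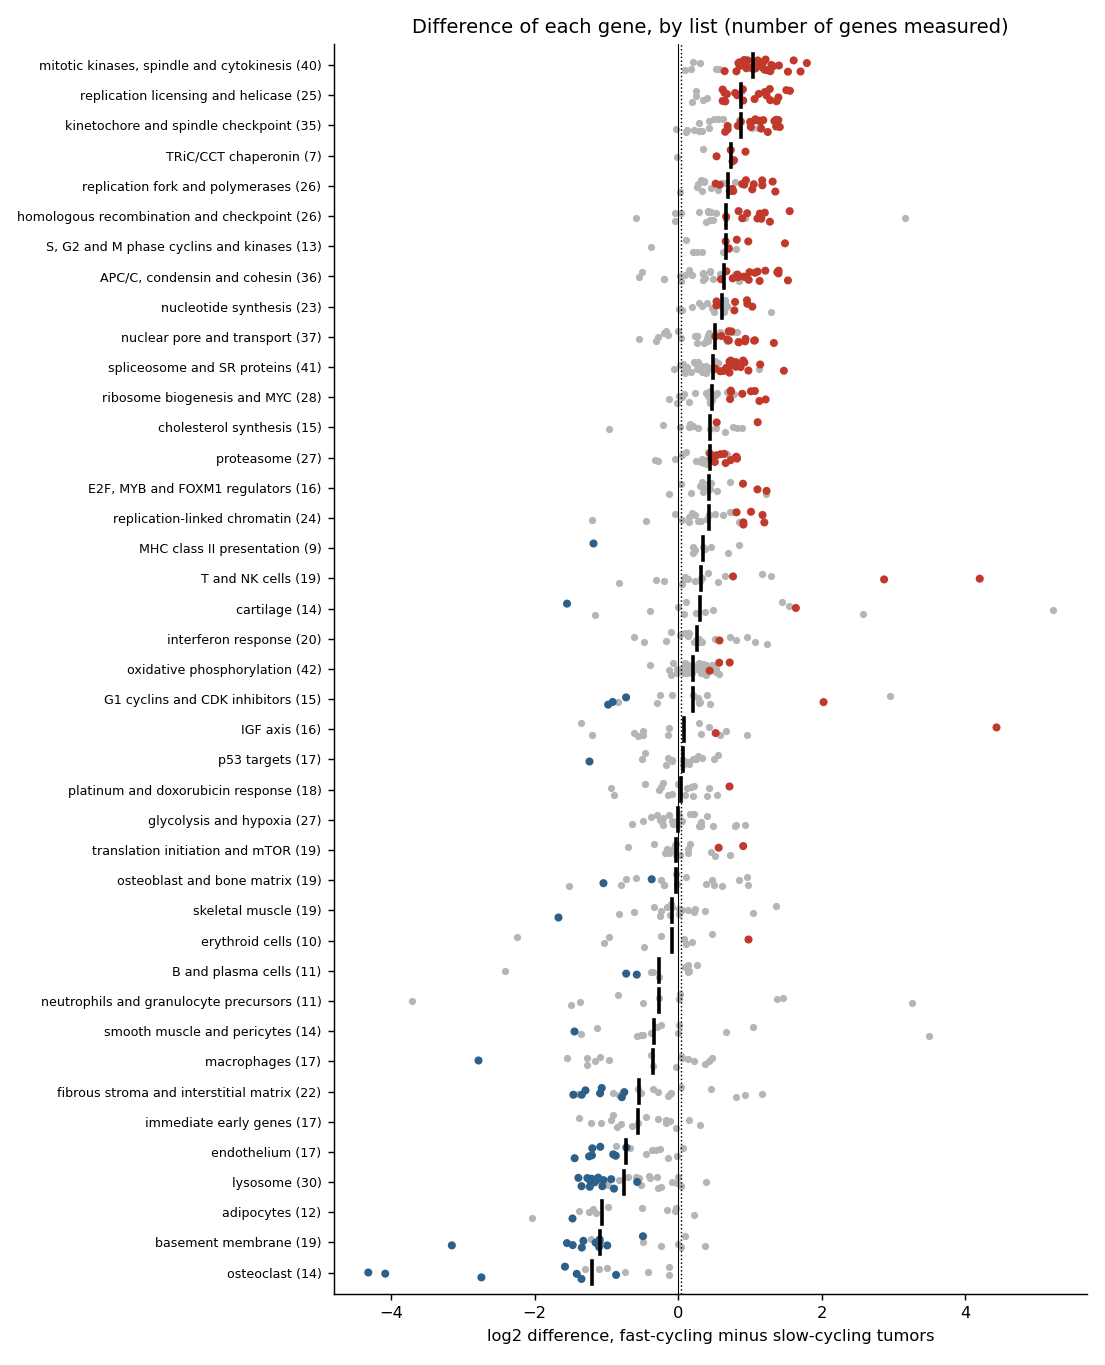
Log2 difference of each gene, fast-cycling minus slow-cycling tumors, in 41 lists ordered by their median (thick bars), with the number of genes measured in brackets; red and blue points are higher and lower at an unadjusted p under 0.05 and the dotted line is the median of all genes, 0.05. Mitotic kinases, spindle and cytokinesis lie at the top, with a median of 1.05, and osteoclast genes at the bottom, with -1.20.

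Origin licensing, the first step of the cycle, was higher throughout. All 25 genes for licensing and the helicase were higher in fast-cycling tumors, 19 at the unadjusted threshold and 5 with no overlap, with a median of 0.88. CDC6, which loads the helicase onto origins, had log2 signals of 8.69, 7.85, 8.71, 7.74 and 8.22 in fast-cycling tumors, against 6.95, 6.81, 6.64, 6.94 and 7.01 in slow-cycling tumors. The slow-cycling tumors were tightly packed around the reporter level and all fast-cycling tumors lay well clear of them. The difference was 1.37 (SE 0.23), with a limma adjusted p of 0.243, the smallest among the higher genes above the reporter level. CDT1, the partner of CDC6 in loading, differed by 1.56 (SE 0.28) with no overlap, although it lay below the reporter level on average. MCM10, which helps start the helicase, averaged 7.80 ± 0.41 in fast-cycling and 6.56 ± 0.41 in slow-cycling tumors (SD, n = 5 each), also with no overlap. CDC45, a part of the running helicase, averaged 7.69 ± 0.59 in fast-cycling and 6.29 ± 0.49 in slow-cycling tumors, and the groups overlapped at dogs 212759 (6.77) and 168327 (6.80).

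Genes of the replication fork were likewise all higher, 26 of 26, with 14 at the unadjusted threshold, 4 with no overlap and a median of 0.70. PCNA, the sliding clamp of the polymerases, averaged 11.46 ± 0.23 in fast-cycling and 10.54 ± 0.49 in slow-cycling tumors. Its other probeset differed by only 0.51 (SE 0.36). POLE2, a subunit of the leading-strand polymerase, averaged 9.79 ± 0.16 in fast-cycling and 8.74 ± 0.59 in slow-cycling tumors. Both had no overlap. Enzymes of nucleotide synthesis were higher in 23 of 23 cases, 7 at the threshold and 1 with no overlap, with a median of 0.61. That gene was MTHFD1, which makes one-carbon units for purines, with 11.03 ± 0.29 in fast-cycling and 10.24 ± 0.36 in slow-cycling tumors. RRM2, the regulated subunit of ribonucleotide reductase, differed by 1.03 (SE 0.41) but overlapped, since dog 208756 had only 9.57 and dog 180119 had 10.37.

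Repair and chromatin genes that work beside the fork were mostly higher too. Of 26 genes for homologous recombination and checkpoints, 23 were higher, 10 at the threshold and 4 with no overlap, with a median of 0.67. FANCD2, the central protein of cross-link repair, had log2 signals of 8.88, 8.64, 9.20, 8.98 and 9.31 in fast-cycling tumors, against 8.20, 7.62, 8.05, 7.02 and 6.34 in slow-cycling tumors. The lowest fast-cycling tumor thus lay above the highest slow-cycling one, and the difference was 1.56 (SE 0.35). FANCA of the same pathway differed by 1.28 (SE 0.16), with a limma adjusted p of 0.0670, but both groups were below the reporter level. Of 24 genes for chromatin laid down behind the fork, 21 were higher, 6 at the threshold and 3 with no overlap, with a median of 0.43. ASF1A, a histone chaperone, averaged 9.29 ± 0.15 in fast-cycling and 8.38 ± 0.41 in slow-cycling tumors.

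Mitosis gave the largest median of the division lists. All 40 genes for mitotic kinases, the spindle and cytokinesis were higher in fast-cycling tumors, 31 at the unadjusted threshold and 10 with no overlap, with a median of 1.05. TPX2, which builds spindle microtubules and activates Aurora A, had log2 signals of 8.24, 9.45, 8.28, 8.03 and 8.32 in fast-cycling tumors, against 6.96, 7.24, 7.13, 6.64 and 6.30 in slow-cycling tumors. Dog 208513 stood out at the top, and the groups lay far apart, by 1.61 (SE 0.30), although 2 slow-cycling tumors were below the reporter level. AURKA, the Aurora A kinase of the spindle poles, had 8.92, 9.86, 9.02, 8.47 and 9.59 in fast-cycling tumors, against 7.76, 8.31, 6.64, 7.49 and 6.69 in slow-cycling tumors. Its groups came within a short distance of each other at dogs 208756 and 180119 without overlap, and the difference was 1.79 (SE 0.38), again with 2 slow-cycling tumors below the reporter level. AURKB, the Aurora B kinase that corrects faulty attachments, averaged 9.85 ± 0.48 in fast-cycling and 8.32 ± 0.59 in slow-cycling tumors. DLGAP5, a spindle protein, averaged 10.46 ± 0.48 in fast-cycling and 8.75 ± 0.79 in slow-cycling tumors.

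Kinetochores and the machinery of exit from mitosis followed. Of 35 kinetochore and checkpoint genes, 20 were higher at the threshold and 6 had no overlap, with a median of 0.87. KNTC1, of the complex that brings checkpoint proteins to kinetochores, averaged 7.46 ± 0.55 in fast-cycling and 6.21 ± 0.33 in slow-cycling tumors, and its partner ZWILCH averaged 7.14 ± 0.41 in fast-cycling and 5.77 ± 0.48 in slow-cycling tumors, about the reporter level. Of 36 genes for the anaphase-promoting complex, condensin and cohesin, 17 were higher at the threshold and 6 had no overlap, with a median of 0.63. NCAPH, the condensin subunit that closes the ring around DNA, had 8.70, 8.90, 8.52, 8.53 and 8.39 in fast-cycling tumors, against 7.45, 7.52, 6.77, 7.81 and 6.50 in slow-cycling tumors. Fast-cycling tumors were nearly alike for NCAPH, whereas slow-cycling tumors spread over a wider range below them. UBE2C, the ubiquitin-conjugating enzyme of the anaphase-promoting complex, averaged 8.18 ± 0.69 in fast-cycling and 6.80 ± 0.27 in slow-cycling tumors with no overlap.

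Regulators of the cycle were mostly higher. Of 13 cyclins and kinases of S, G2 and M phase, 12 were higher, 5 at the threshold, with a median of 0.66, and CCNB2 (cyclin B2) alone had no overlap, with 9.52 to 10.62 in fast-cycling and 8.71 to 9.24 in slow-cycling tumors. CDK1, the kinase that B cyclins activate, averaged 10.67 ± 0.52 in fast-cycling and 9.86 ± 0.29 in slow-cycling tumors and overlapped. Of 16 genes for E2F, MYB and FOXM1 regulators 15 were higher, 3 at the threshold, with a median of 0.44. MYBL2, which turns on genes of late cell cycle, averaged 9.22 ± 0.34 in fast-cycling and 7.99 ± 0.53 in slow-cycling tumors with no overlap. FOXM1, its partner in that role, averaged 8.63 ± 1.49 in fast-cycling and 7.41 ± 1.12 in slow-cycling tumors, a difference of 1.22 (SE 0.75) within the spread between tumors. MYC, the growth-promoting transcription factor, differed by 1.22 (SE 0.37), although its mean signal and all slow-cycling tumors lay below the reporter level. Its groups overlapped at dog 212759, which ranked first by score but had a MYC signal of only 6.18.

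Genes of the G1 decision moved in both directions. Of 15 G1 cyclins and inhibitors of their kinases, 1 was higher and 3 were lower at the unadjusted threshold, and the median of 0.20 became -0.14 without dog 204714. CCND2 (cyclin D2) had log2 signals of 9.33, 10.55, 8.59, 10.56 and 9.40 in fast-cycling tumors, against 10.88, 6.77, 6.24, 8.48 and 5.91 in slow-cycling tumors. The highest value belonged to a slow-cycling tumor, dog 168327, while the other slow-cycling tumors lay below every fast-cycling one. CCND1 (cyclin D1) ran the other way, with 8.72 ± 0.40 in fast-cycling and 9.70 ± 0.93 in slow-cycling tumors. CDKN1A, the p21 inhibitor that p53 induces, averaged 9.33 ± 0.37 in fast-cycling and 10.24 ± 0.75 in slow-cycling tumors, and RBL2, a relative of the retinoblastoma protein that keeps resting cells at rest, 8.52 ± 0.38 in fast-cycling and 9.24 ± 0.64 in slow-cycling tumors. All 3 overlapped between the groups. Among 17 targets of p53, a list that leaves out CDKN1A, MDM2 alone was lower at the threshold and 0 were higher. Its signal was 9.17, 9.57, 9.75, 9.22 and 9.69 in fast-cycling tumors. In slow-cycling tumors it ran from 9.69 to 12.57, with dog 204714 far above the rest.

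**Figure D3:**
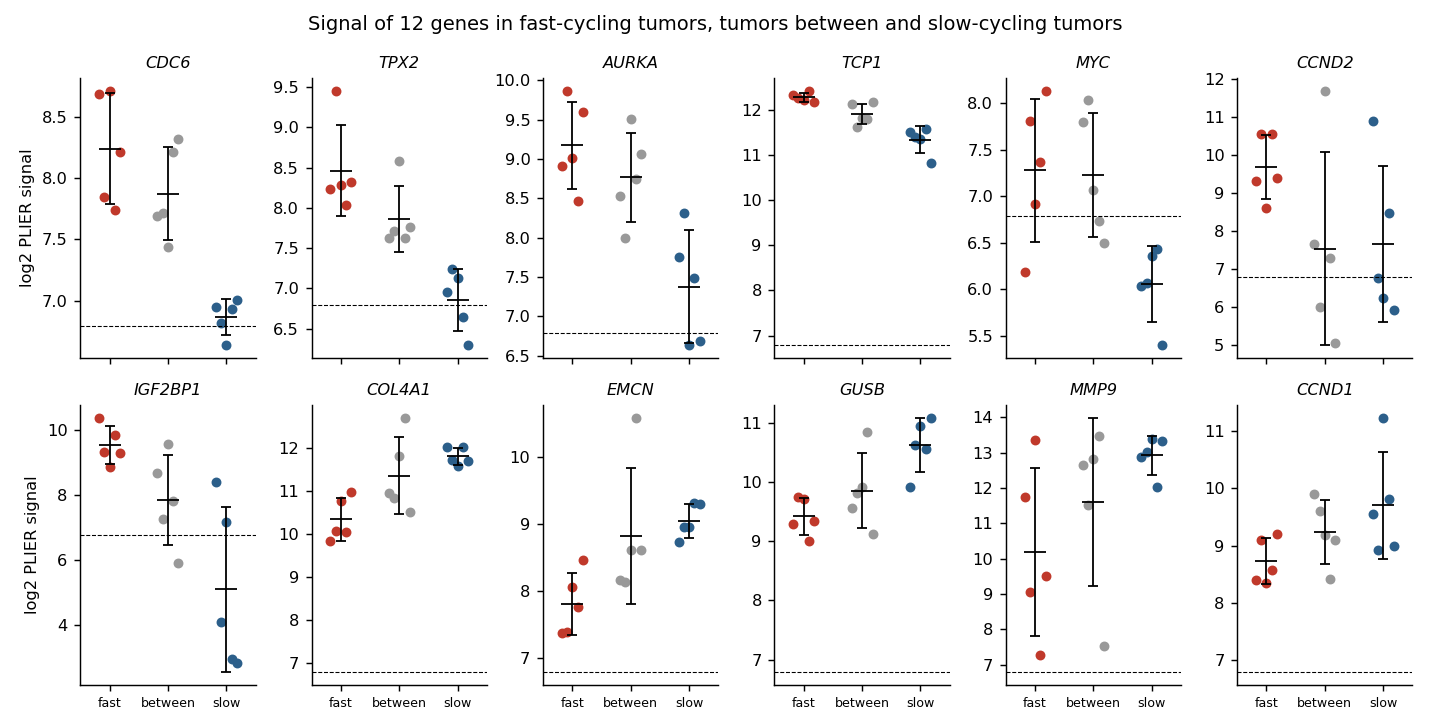
Log2 PLIER signal of 12 genes in each fast-cycling tumor (red), tumor between (grey) and slow-cycling tumor (blue), with group means and SD (n = 5 each); the dashed line is the reporter level, 6.79. CDC6, TPX2, AURKA, TCP1 and IGF2BP1 are higher in every fast-cycling tumor, COL4A1, EMCN and GUSB lower in every one, and MYC, CCND2, MMP9 and CCND1 overlap.

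IGF2BP1, a fetal RNA-binding protein that stabilizes growth-related messages, was high in every fast-cycling tumor and faint in most slow-cycling ones. Its signal was 10.37, 9.31, 8.88, 9.85 and 9.29 in fast-cycling tumors, against 8.41, 4.11, 7.17, 2.97 and 2.84 in slow-cycling tumors. The groups did not overlap, and 3 slow-cycling tumors lay below the reporter level and 2 above it. Of these 2, dog 204714 is the only slow-cycling tumor from DFI < 100. The tumors between ran from 5.91 to 9.57 and so reached the fast-cycling range. With the 3 slow-cycling tumors below the reporter level set at that level, IGF2BP1 was at least 5.09-fold higher in fast-cycling than in slow-cycling tumors. The fitted difference, which rests on the faint values, was 4.44 (SE 1.05) on the log2 scale with a limma adjusted p of 0.305. Among the other 15 genes of the IGF axis only 1 was higher at the threshold and 0 were lower, and the list median of 0.08 became -0.20 without dog 208513.

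Lists for protein folding, splicing, nuclear transport, ribosome biogenesis and the proteasome had mostly higher genes as well, though 3 of these (the chaperonin, splicing and nuclear transport) were put together after their leading genes had been seen. Of 7 subunits of the TRiC chaperonin, which folds actin, tubulin and cell cycle proteins, 5 were higher at the threshold and 3 had no overlap, with a median of 0.73. TCP1, its first subunit, had 12.33, 12.25, 12.21, 12.41 and 12.17 in fast-cycling tumors, against 11.50, 11.41, 11.36, 11.59 and 10.83 in slow-cycling tumors. Fast-cycling tumors were within a narrow band and dog 190030 was the lowest of all. CCT7, another subunit, averaged 11.68 ± 0.11 in fast-cycling and 10.91 ± 0.21 in slow-cycling tumors, a small difference of 0.78 (SE 0.15) set against a still smaller spread.

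Splicing factors were higher in 40 of 41 cases, 17 at the threshold and 12 with no overlap, with a median of 0.48. PRMT5, the methyltransferase that prepares spliceosomal proteins for assembly, averaged 9.95 ± 0.40 in fast-cycling and 8.47 ± 0.57 in slow-cycling tumors. SRSF6, a serine- and arginine-rich splicing factor, averaged 10.40 ± 0.14 in fast-cycling and 9.47 ± 0.31 in slow-cycling tumors, while its other probeset differed by 0.38 (SE 0.18). Of 37 genes for the nuclear pore and transport, 13 were higher at the threshold and 5 had no overlap, with a median of 0.52. CSE1L, which returns importin alpha to the cytoplasm, averaged 10.90 ± 0.30 in fast-cycling and 9.84 ± 0.28 in slow-cycling tumors, and its cargo KPNA2 (an importin alpha) averaged 11.64 ± 0.22 in fast-cycling and 10.70 ± 0.48 in slow-cycling tumors.

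Ribosome and proteasome genes gave medians of 0.47 and 0.44. For ribosome biogenesis 8 of 28 genes were higher at the threshold and 2 had no overlap, FBL and NOP56, both core proteins of the particles that modify ribosomal RNA. FBL averaged 11.40 ± 0.24 in fast-cycling and 10.39 ± 0.69 in slow-cycling tumors, where dog 190030 was alone at 9.16. Of 27 proteasome subunits 11 were higher at the threshold and 4 had no overlap, among them PSMA6 with 11.48 ± 0.23 in fast-cycling and 10.66 ± 0.34 in slow-cycling tumors. Of 42 genes of oxidative phosphorylation 35 were higher but only 3 at the threshold, near the share of all genes above the reporter level (549 of 6427). Their median of 0.21 became 0.13 without dog 190030. Genes of glycolysis and hypoxia did not stand apart, with 0 of 27 past the threshold in either direction and a median of 0.00. Translation initiation had 2 of 19 higher and 0 lower at the threshold, not far from the share of all genes, with a median of -0.03.

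The 15 higher genes with the smallest p above the reporter level held 4 of the division lists (CDC6, TPX2, NCAPH and MCM10). TCP1, CCT7, PRMT5, SRSF6, CSE1L, RAE1 and MVD belonged to lists that were put together after these genes had been seen. Outside all lists were CSTF1, which takes part in the cleavage of messages before polyadenylation, and G2E3, a ubiquitin ligase whose message peaks in G2. So were MZF1, a zinc finger transcription factor, and LOC485338, which RefSeq records as a pseudogene. CSTF1 averaged 9.32 ± 0.18 in fast-cycling and 8.32 ± 0.23 in slow-cycling tumors, and G2E3 averaged 8.59 ± 0.42 in fast-cycling and 7.39 ± 0.34 in slow-cycling tumors. LOC485338 differed by 1.60 (SE 0.30), but a pseudogene may share probes with its parent gene. MVD, an enzyme of cholesterol synthesis, averaged 7.53 ± 0.36 in fast-cycling and 6.42 ± 0.29 in slow-cycling tumors, whereas of 15 genes of that pathway, a list put together after MVD had been seen, only 2 were higher at the threshold, with a list median of 0.45 that became 0.25 without dog 168327. Differences of the 15 genes ran from 0.78 to 1.61 and their adjusted p from 0.243 to 0.293.

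Genes of vessel walls and basement membranes were lower in fast-cycling tumors. In a list of basement membrane genes put together after its leading members had been seen, 16 of 19 were lower, 11 at the threshold and 5 with no overlap, with a median of -1.09. COL4A2, a chain of the type IV collagen network, had 9.84, 10.13, 10.59, 9.91 and 10.49 in fast-cycling tumors, against 12.24, 11.70, 11.34, 11.99 and 11.43 in slow-cycling tumors. Every slow-cycling tumor lay above every fast-cycling one, by a mean of 1.55 on the log2 scale (2.93-fold, SE 0.24), with a limma adjusted p of 0.187. COL4A1, which pairs with it in the same network and is transcribed from the same locus, averaged 10.34 ± 0.50 in fast-cycling and 11.81 ± 0.20 in slow-cycling tumors. LAMA4, a laminin chain of vessel walls, averaged 10.95 ± 0.45 in fast-cycling and 12.10 ± 0.30 in slow-cycling tumors. LAMA3, a laminin chain of epithelial basement membranes, differed by -3.15 (SE 0.68) with no overlap, at a mean signal below the reporter level.

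Endothelial genes followed the same direction. Of 17, 16 were lower in fast-cycling tumors, 8 at the threshold and 4 with no overlap, with a median of -0.72. EMCN (endomucin), a surface protein of capillaries and veins, had 7.38, 7.39, 8.06, 7.76 and 8.47 in fast-cycling tumors, against 8.73, 8.95, 8.96, 9.32 and 9.31 in slow-cycling tumors. The groups did not overlap, and dogs 212759 and 208513, with the highest scores, had the lowest EMCN. PECAM1, an adhesion molecule of endothelium, averaged 8.30 ± 0.77 in fast-cycling and 9.75 ± 0.29 in slow-cycling tumors with no overlap, while the defining marker CDH5 lay below the reporter level with 5.72 in fast-cycling and 6.09 in slow-cycling tumors. CD93, an endothelial receptor, was lower by 1.24 (SE 0.15) with a limma adjusted p of 0.0670, again below the reporter level. The signals summed over the 17 genes on the linear scale ran from 1729 to 3088 in fast-cycling and from 3647 to 4809 in slow-cycling tumors. How much of the basement membrane difference comes with vessels was not tested. The tumors between did not form a step for the endothelial list, since the list mean of one of them (8.25) was above all others.

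Genes of lysosomes and osteoclasts were lower as well. In a lysosome list put together after its leading members had been seen, 28 of 30 genes were lower in fast-cycling tumors, 14 at the threshold and 3 with no overlap, with a median of -0.76. GUSB, the lysosomal beta-glucuronidase, had 9.29, 9.75, 9.72, 9.00 and 9.34 in fast-cycling tumors, against 9.91, 10.63, 10.95, 10.56 and 11.07 in slow-cycling tumors. The groups did not overlap but came close at dogs 208513 and 168327. SCARB2, a lysosomal membrane protein, averaged 9.48 ± 0.58 in fast-cycling and 10.71 ± 0.13 in slow-cycling tumors, and CTSZ, a lysosomal protease, 9.46 ± 0.63 in fast-cycling and 10.80 ± 0.44 in slow-cycling tumors.

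All 14 osteoclast genes were lower in fast-cycling tumors, 7 at the threshold but 0 with no overlap, with a median of -1.20. MMP9, the gelatinase that osteoclasts secrete, had 11.74, 9.07, 13.37, 7.27 and 9.52 in fast-cycling tumors, against 12.89, 13.01, 13.40, 12.02 and 13.34 in slow-cycling tumors. Dog 153599 thus had as much MMP9 as slow-cycling tumors, and the other fast-cycling tumors less than any of them. ATP6V0D2, a proton pump subunit of the resorbing membrane, had 8.15, 1.09, 11.08, 4.01 and 6.83 in fast-cycling tumors, against 9.76, 11.34, 11.02, 8.96 and 10.49 in slow-cycling tumors. The same fast-cycling tumor was again the exception, while dogs 208513 and 208756 were below the reporter level. Dog 153599 had the only giant cell tumor of the fast-cycling group, and whether the subtype bears on this was not tested. CTSK (cathepsin K), which digests bone collagen, ran from 9.83 to 13.49 in fast-cycling and from 12.98 to 13.45 in slow-cycling tumors. The defining marker CALCR lay far below the reporter level with 2.34 in fast-cycling and 2.47 in slow-cycling tumors. Summed signals of the 14 genes ran from 2887 to 40327 in fast-cycling and from 20229 to 40342 in slow-cycling tumors, so that slow-cycling tumors were uniformly rich in these genes and fast-cycling tumors ranged from poor to rich. How much of the lysosome difference comes with osteoclasts was not tested.

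**Figure D4:**
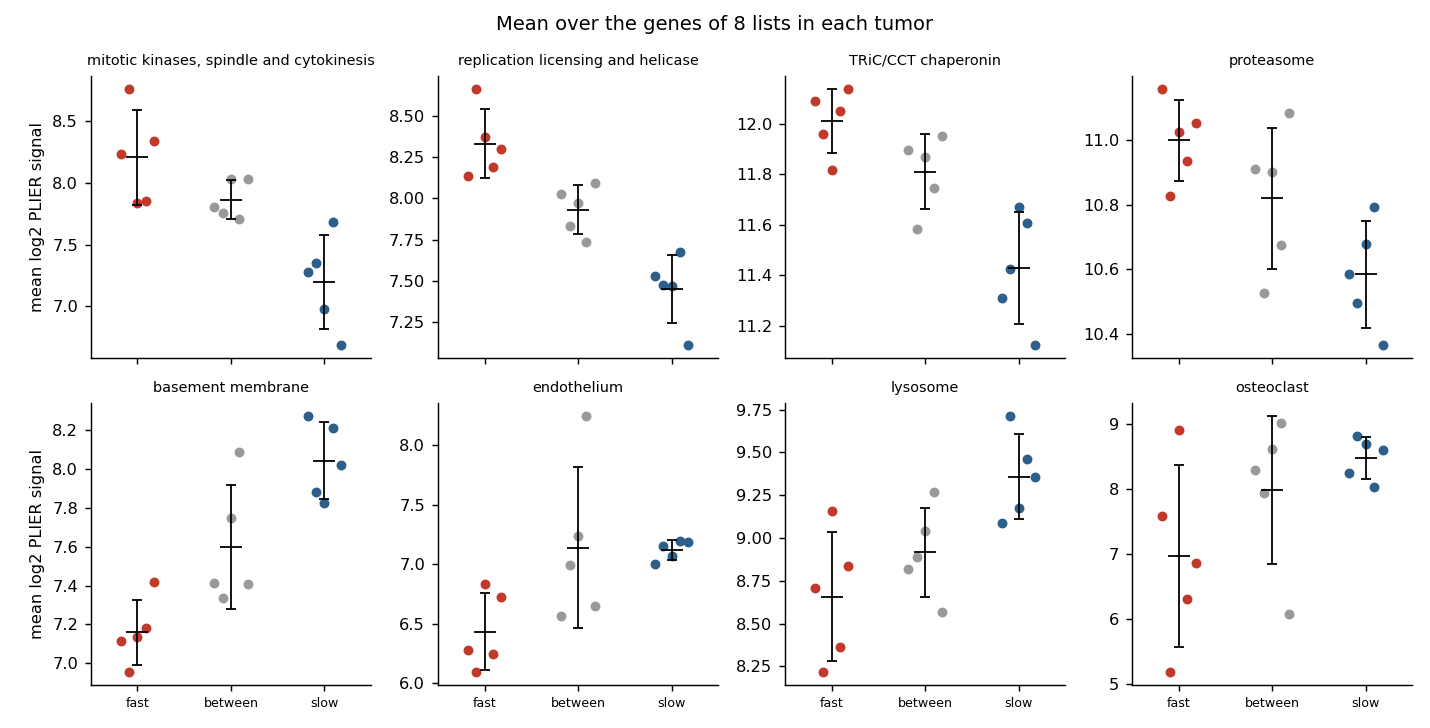
Mean log2 PLIER signal over the genes of 8 lists in each fast-cycling tumor (red), tumor between (grey) and slow-cycling tumor (blue), with group means and SD (n = 5 each). The means of the mitotic, licensing, chaperonin and proteasome lists are higher in every fast-cycling than in every slow-cycling tumor. Some tumors between reach the fast-cycling range for the mitotic, chaperonin and proteasome lists, and the slow-cycling range for chaperonin and proteasome. For licensing they reach neither. Osteoclast means run from 5.18 to 8.92 in fast-cycling and from 8.04 to 8.82 in slow-cycling tumors.

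Stromal and macrophage genes gave weaker or mixed patterns. Of 22 genes for fibrous stroma 7 were lower at the threshold and 0 had no overlap, with a median of -0.54 that became -0.84 without dog 180119. COL5A2, a collagen that regulates fibril width, averaged 12.11 ± 0.47 in fast-cycling and 12.90 ± 0.28 in slow-cycling tumors, and PDGFRB, the receptor of fibroblasts and pericytes, 6.94 ± 0.53 in fast-cycling and 8.02 ± 0.73 in slow-cycling tumors. OLFML2B, a secreted matrix protein, averaged 9.43 ± 0.31 in fast-cycling and 10.85 ± 0.32 in slow-cycling tumors with no overlap and a limma adjusted p of 0.187. Of 17 macrophage genes only CD68, a lysosomal protein that osteoclasts carry too, was lower at the threshold, with 7.85 ± 2.49 in fast-cycling and 10.65 ± 0.62 in slow-cycling tumors. The macrophage median of -0.35 became 0.36 without dog 180119. Of the other defining macrophage markers, CSF1R averaged 6.99 in fast-cycling and 8.26 in slow-cycling tumors, a difference of -1.27 (SE 0.71). CD163, a scavenger receptor of macrophages, averaged 8.39 in fast-cycling and 8.77 in slow-cycling tumors, a difference of -0.38 with a wide SE of 1.01.

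Differentiation and the remaining cell types showed little. Of 19 osteoblast and bone matrix genes 2 were lower at the threshold and 0 higher, beside 4.47% and 5.78% of all genes. The list median of -0.04 became -0.23 without dog 180223 and 0.11 without dog 204714. One of the 2 lower genes was SPARC, a calcium-binding bone protein, with 13.14 ± 0.17 in fast-cycling and 13.51 ± 0.08 in slow-cycling tumors and no overlap. The other was PTH1R, the parathyroid hormone receptor, with 9.37 ± 0.43 in fast-cycling and 10.41 ± 0.68 in slow-cycling tumors. Immediate early genes, which cells switch on within minutes of a stimulus, were lower in 15 of 17 cases but 0 passed the threshold, and their median of -0.56 became -0.34 without dog 180119. Of 19 T and NK cell genes 3 were higher at the threshold, all faint, and only 1 of the 19 lay above the reporter level. The defining T cell marker CD3E had 6.03 in fast-cycling and 5.90 in slow-cycling tumors, under that level. For the interferon response 1 of 20 was higher, and for smooth muscle and pericytes 1 of 14 was lower. Lists for cartilage, B and plasma cells, granulocytes, erythroid cells, skeletal muscle, MHC class II presentation and drug response had 0 to 2 genes past the threshold in each direction and medians from -0.27 to 0.35. That of MHC class II presentation, 0.35, became -0.08 without dog 190030, and those of B and plasma cells and of granulocytes, -0.26 and -0.27, became 0.05 without dog 180119 and 0.03 without dog 208513. Adipocyte genes had a median of -1.06 that became -0.18 without dog 168327.

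The lower genes with the smallest p named further matrix and membrane genes. HTRA1, a secreted protease of matrix, averaged 11.04 ± 0.37 in fast-cycling and 12.32 ± 0.46 in slow-cycling tumors. ITGA5, the fibronectin receptor subunit, averaged 8.25 ± 0.37 in fast-cycling and 9.42 ± 0.41 in slow-cycling tumors. SLC6A8, the creatine transporter, had 8.00, 6.30, 9.47, 7.43 and 7.02 in fast-cycling tumors, against 9.56, 9.89, 10.29, 10.22 and 10.28 in slow-cycling tumors. The difference was -2.41 (SE 0.51), with dog 153599 nearest to the slow-cycling tumors. Its other probesets did not share this size, one being even with 8.00 in fast-cycling and 7.84 in slow-cycling tumors and one lower by 0.89. PLA2R1, a phospholipase receptor, averaged 6.26 ± 0.51 in fast-cycling and 7.94 ± 0.55 in slow-cycling tumors, and ANTXR2, a receptor for collagens and laminin, 9.29 ± 0.35 in fast-cycling and 10.81 ± 0.56 in slow-cycling tumors. CYBRD1, an iron reductase, AGPAT2, an enzyme of lipid synthesis, and FYCO1, an adaptor that moves autophagosomes, were lower by 1.33, 1.09 and 0.95.

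The 5 tumors between the groups were not part of these comparisons. For 193 of the 213 genes higher with no overlap (90.6%) their mean lay between the group means, as it did for 109 of the 126 lower genes (86.5%), against 40.2% of all 15112 genes. A gene with a wide gap between groups leaves more room for a mean to lie in it. Over all 15 tumors, which share no library, the genes outside the fixed lists whose log2 signal followed the score most closely were TCP1 (Pearson r = 0.90, n = 15 tumors), DDX23 (r = 0.90), CKAP2L (r = 0.89), CCT7 (r = 0.89) and RUVBL2 (r = 0.88). DDX23 is a spliceosomal helicase, CKAP2L a spindle protein and RUVBL2 an ATPase of chromatin remodeling. When the score of all 15 tumors was fitted as a continuous measure, 15 probesets rose and 2 fell with it at a limma adjusted p under 0.05. Since this score is the measure that ranked the tumors, the fit is a description and no independent evidence. The slope, in log2 units per SD of the score over the 15 tumors, was 0.70 for TPX2, 0.41 for TCP1 and 0.61 for NCAPH. It was 2.11 for IGF2BP1, 0.56 for CENPK, a kinetochore gene, and -1.61 for LAMA3. The slopes of IGF2BP1 and LAMA3 rest in part on values below the reporter level.

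Within cohorts, all 10 division lists had higher means in fast-cycling tumors both among DFI < 100 dogs (4 fast-cycling and 1 slow-cycling tumor) and among DFI > 300 dogs (1 and 4). The difference in list means for mitotic kinases, spindle and cytokinesis was 1.08 in DFI < 100 and 1.51 in DFI > 300. In DFI < 100 it was -0.61 for basement membrane, -0.55 for endothelium, -0.41 for lysosome and -1.28 for osteoclasts. In DFI > 300 it was -1.14 for basement membrane, -1.04 for endothelium, -1.19 for lysosome and -3.25 for osteoclasts. Fibrous stroma was lower in DFI < 100 (-1.07) and higher in DFI > 300 (0.44), and macrophages were higher in DFI < 100 (0.30) and lower in DFI > 300 (-1.80). In each cohort one side is a single tumor, dog 204714 for slow-cycling DFI < 100 and dog 208513 for fast-cycling DFI > 300, and the difference between cohorts was not tested.

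Age, cohort and the 3 prime to 5 prime ratio differed in their means or shares between the groups and were each tried as a covariate. With age in the fit, 86 of the 264 division genes were higher at the threshold, with a median of 0.61. With the 3 prime to 5 prime ratio as a covariate there were 98, and with cohort as a covariate 115.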

How the data were processed

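Total RNA from 15 canine primary tumors was hybridized to Affymetrix Canine 2.0 arrays. The authors selected RNA by its integrity and summarized probesets with PLIER in Affymetrix Expression Console, per the labels. The deposited values are intensities on the linear scale, 1 per probeset and array. How probes were normalized before PLIER, and which arrays shared a hybridization batch, is not given in the sources used here. The number of arrays limits the precision. Cohort, breed and age came from the sample labels, and subtype and site from the study's description of the dogs.

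Of 43035 probesets, 175 controls and 4 probesets of the scoring genes were left out. The log2 values of 42856 probesets in 10 tumors were fitted with limma (version 3.58.1, R 4.3.3; lmFit and eBayes), and p was adjusted over all of them by Benjamini-Hochberg. Names came from the platform annotation, with 29250 probesets of 1 symbol, 439 of several and 13167 of none. Genes stand for their brightest probeset with 1 symbol. The reporter level is the 95th percentile of 64 reporter controls averaged over the arrays.

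Named genes were the 15 higher and 15 lower with the smallest p above the reporter level, up to 4 members of each list described in each direction and the 5 outside the lists fixed in advance most correlated with the score. Others, such as defining markers, were added after their values were seen. The tumors and 35 lists were chosen with earlier results of these data known, and 6 more lists after values were seen. Lists were described and not tested. Alternatives were the methods' t-test, a trend and robust prior, an offset of 16, quantile normalization, filters on dim probesets (that at the reporter level chosen after seeing the data), array weights, covariates (cohort, age, 3 prime to 5 prime ratio), other scores and group sizes, and each dog left out. The fit was tested on simulated data. Promoter motifs were not analysed here.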

Additional observations from a re-analysis of the deposited data

Results flagged for a closer look

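Among 206 groups of 5 tumors looked at (103 genes in 2 groups), 9 held a tumor whose distance to its nearest neighbor was over 0.71 of the group's whole range. That is 4.37%, and chance gives about 1 in 20. Among fast-cycling tumors, dog 208513 stood above the others for TPX2 (9.45, against 8.03 to 8.32) and for E2F3 (5.82, against 4.31 to 4.66), and dog 208756 for OLFML2B (9.97, against 9.15 to 9.36). Among slow-cycling tumors, dog 190030 stood below the others for CCT7 (10.53, against 10.97 to 11.04), CDT1 (5.13, against 5.98 to 6.32) and FBL (9.16, against 10.54 to 10.82). Dog 204714 stood above the other slow-cycling tumors for CA2 (11.41, against 8.88 to 9.61), PTH1R (11.58, against 9.83 to 10.33) and FYCO1 (9.57, against 9.28 to 9.36). All are log2 signals.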

How the results depend on the processing

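The 103 genes checked kept the sign of their difference under every alternative run, but several alternatives could not change a sign. The methods' t-test, the trend and robust prior, the filters and 15 tumors in 3 groups kept the same group means. The other scores chose the same tumors and so repeated the main fit. Many of the genes were also named for a small p in these same tumors. In 2649 of 2659 cases the 103 genes also stayed on the same side of the adjusted threshold, and in 10 they passed it. TPX2, TCP1, NCAPH, IGF2BP1, LAMA3, CENPK, RUVBL2 and CKAP2L did so with the continuous score, and FANCA and CD93 with an offset of 16. That score is the one that ranked the tumors, so passing with it is no independent evidence. TCP1, RUVBL2 and CKAP2L are also among the genes named for their correlation with it. The count of probesets past the adjusted threshold was 2 higher and 2 lower, and depended on the setting. It was 0 in both directions with the methods' t-test, the trend and robust prior, probesets above the median or above the reporter level, cohort, age or the 3 prime to 5 prime ratio as a covariate, and 4 tumors against 4. It was 1 higher and 0 lower with quantile normalization and with 7 against 7, 2 and 1 with an offset of 16, 0 and 1 with 15 tumors in 3 groups, and 15 and 2 with the continuous score. Leaving out each dog in turn gave 0 to 4 higher (4 without dog 180223) and 0 to 5 lower (5 without dog 208513). At the unadjusted threshold 2334 probesets were higher and 1857 lower, 1157 and 1003 above the reporter level, where fewer were tested. The methods' t-test had 3889 in both directions together, and 0 after Benjamini-Hochberg. Division genes higher at the unadjusted threshold numbered 132 of 264, 94 with 7 against 7, 86 with age as a covariate and 100 without dog 190030. No paired analysis was possible because the labels number dogs and no dog is in both groups.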

Other observations

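Higher genes were unevenly spread over chromosomes, a pattern noticed in the data and not tested. By the UU_Cfam_GSD_1.0 assembly, AURKA shares its chromosome with 160 other genes above the reporter level, of which 18 (11.2%) were higher in every fast-cycling tumor than in every slow-cycling one. On other chromosomes this held for 128 of 5930 genes (2.16%), and the next highest share among 39 chromosomes with enough genes was 4 of 46 (8.70%). Of the 18 genes, 11 belonged to the lists described, among them TPX2, CSE1L, SRSF6 and RAE1, and 7 did not (CSTF1, ITPA, PRELID3B, VAPB, RTF2, XRN2 and PRPF6). The median log2 difference of the genes on that chromosome was 0.16, against 0.07 elsewhere. Some other chromosomes had larger medians, up to 0.44. Copy number was not measured.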
